A study of Mus musculus with 8 samples.

Results

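The proteasome genes described here are the 49 of 41018 genes whose symbol begins with Psma, Psmb, Psmc, Psmd, Psme, Psmf or Psmg followed by a number. They were found by symbol alone, without any measured value. RNA came from CD11b+ bone marrow (BM) cells, which were taken with magnetic beads from the flushed femurs and tibiae of female C57BL/6 mice after lysis of red blood cells. The PC-EV-educated group (4 samples) had received extracellular vesicles (EVs) of PAN02 cells, a mouse pancreatic cancer line, every other day for 3 weeks. The control group (4 samples, titled PBS and labelled Untreated in GEO) had, by the study's methods, received injections of PBS alone. CD11b is carried by neutrophils, monocytes and macrophages alike, so each sample is a mixture of cells, and fewer cells of a type cannot be told apart from less RNA per cell. The labels do not say whether each sample came from a separate mouse.

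The proteasome degrades proteins that carry ubiquitin chains. Its 20S core is a barrel: the outer rings are made of alpha subunits, which form the gate, and the inner rings of beta subunits, of which Psmb5, Psmb6 and Psmb7 encode the members with proteolytic sites. In cells of the blood lineage, and in other cells under interferon gamma, these are replaced in newly made cores by Psmb8, Psmb9 and Psmb10, and the resulting immunoproteasome is known for cutting peptides that suit MHC class I molecules. The 19S cap unfolds substrates with a ring of ATPases (the Psmc genes) and binds and trims ubiquitin with its other subunits (most Psmd genes). Other activators dock on the same barrel: PA28 alpha and beta (Psme1 and Psme2), PA28 gamma (Psme3) and PA200 (Psme4).

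For each gene the authors deposited a pooled level, the larger of the 2 group means, and this was the value analysed. The groups were not compared here, because the only values that do so are the authors' own fold changes and p-values, which were not used. The deposited level behaved as RPKM, a value per length of summed exons and per depth of the library: for 94.1% of 1144 of the lowest genes, level times exon length fell within 0.01% of 1 of 8 fixed steps, against 1.49% with the length of a single transcript. The steps were read from products with exon length, and the genes were chosen by the same products. Genes for which both lengths agree were left out. The percentages are therefore not an independent comparison of the lengths. These steps are what 1 fragment is worth in each of 8 libraries, and they give depths of 42231558 to 53507559 fragments. The libraries fell into 2 sets of 4 that are averaged together. Which set is PC-EV-educated and which is PBS is not stated and was not inferred, so the sets are numbered, their libraries are ordered by depth only, and no test was made.

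The markers of the sorted cells were present. The row Itgam_1, the gene of CD11b, had a level of 350.6, above 99.7% of the genes with a level over 0. Another row under this symbol, Itgam_2, had 5.90, above 84.2% of them. All 10 neutrophil genes examined lay between 143 and 42151, and the 4 monocyte genes between 24.6 and 189. The macrophage genes lay between 10.1 and 34.7. Genes of the other cell types listed were mostly lower, with 0.115 to 1.78 for 3 B cell genes, 0.0209 to 0.11 for 3 T cell genes and 0.0212 to 3.35 for 4 dendritic cell genes. The NK cell genes started at 0.255, the erythroid genes at 0.211 and those of eosinophils, basophils and mast cells at 0.819. Higher were the eosinophil gene Prg2 at 285, the hemoglobin genes Hbb-bs at 57.6 and Hba-a1 at 26.7, the eosinophil gene Epx at 22.3 and the NK cell gene Nkg7 at 17.1. Prg2 thus lay above all 4 monocyte genes. Which of these cell types carry CD11b, and so belong to the sorted cells, was not examined. The part of these cells in the proteasome levels was not tested.

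Psme2, which encodes PA28 beta, has a near copy, Psme2b, and the reads of the pair are hard to assign. Psme2 lies on chromosome 14 (55587441 to 55591113, minus strand, GRCm38) and Psme2b is a single exon of 837 bases on chromosome 11 (48945354 to 48946190, minus strand). Over the 720 bases of their coding sequences they differed at 5 positions. All 5 lie at the third position of a codon and change no amino acid. The longest stretch without a difference was 311 bases, so that many fragments inside the coding sequence would match both genes equally.

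Most proteasome genes lay well above the median gene of these cells. Of the 49 genes, 45 had a level of at least 1 and 26 of at least 10, and their median of 12.8 compares with a median of 0.102 over the 28225 genes with a level above 0. The median was 8.11 without the 17 genes that have near copies, and the geometric mean of the 49 genes was 7.66. The median gene of the family lay above 91.5% of the genes with a level above 0. Many of those genes were barely detected. Among genes with a level of at least 1, the median percentile of the members that reached it was 74.5. Levels ran from 0.00873 for Psmb11 to 42.8 for Psma6. Because the deposited level divides by all annotated exons of a gene, long rarely used exons lower it. Each level was therefore also rescaled to the length of 1 coding transcript a gene, which raised the median of the 49 genes to 18.8. No transcript used was longer than the exons of its gene, so this value could only rise or stay equal. It keeps fragments from exons outside that transcript and can therefore overstate it.

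In the alpha ring the median level was 13.4. Psma6 was highest at 42.8 and Psma3 lowest at 6.73, a ratio of 6.36 between subunits that the assembled ring holds in equal number. The other 5 genes lay close together: 12.9 for Psma4, 13.3 for Psma2, 13.4 for Psma5, 13.9 for Psma1 and 14.9 for Psma7. On the length of 1 transcript the median was 26.3, the lowest and highest genes were the same, and the ratio was 5.50. The structural beta subunits, which line the inner rings without a proteolytic site, had a median of 20.3. They were the most even of the core genes on the deposited scale, from 18.2 for Psmb3 and 19.7 for Psmb4 to 20.9 for Psmb2 and 31.8 for Psmb1. The exon length used for Psmb1 was cut from 4595 to 3313 bases at the ends of the deposited region, which changes its value on the transcript scale in the same proportion.

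The genes of the 20S core known from a single tissue were near 0. Psma8, the alpha subunit of testis proteasomes, had a level of 0.0821, which corresponds to 34 to 44 fragments over 4 libraries (95% Poisson interval of the level, 0.057 to 0.114). Psmb11, the catalytic subunit of the thymoproteasome in thymic epithelium, had 0.00873, or 7 to 9 fragments (interval, 0.00353 to 0.0179). Psmb11 starts 3410 bases from Psmb5, whose level was 24.8. Such intervals cover counting error only, since PCR copies were not told apart. No whole numbers of fragments gave the deposited level of Psma8 or Psmb11 with the exon length used. These fragment numbers and intervals therefore rest on a length that could not be checked.

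**Figure D1:**
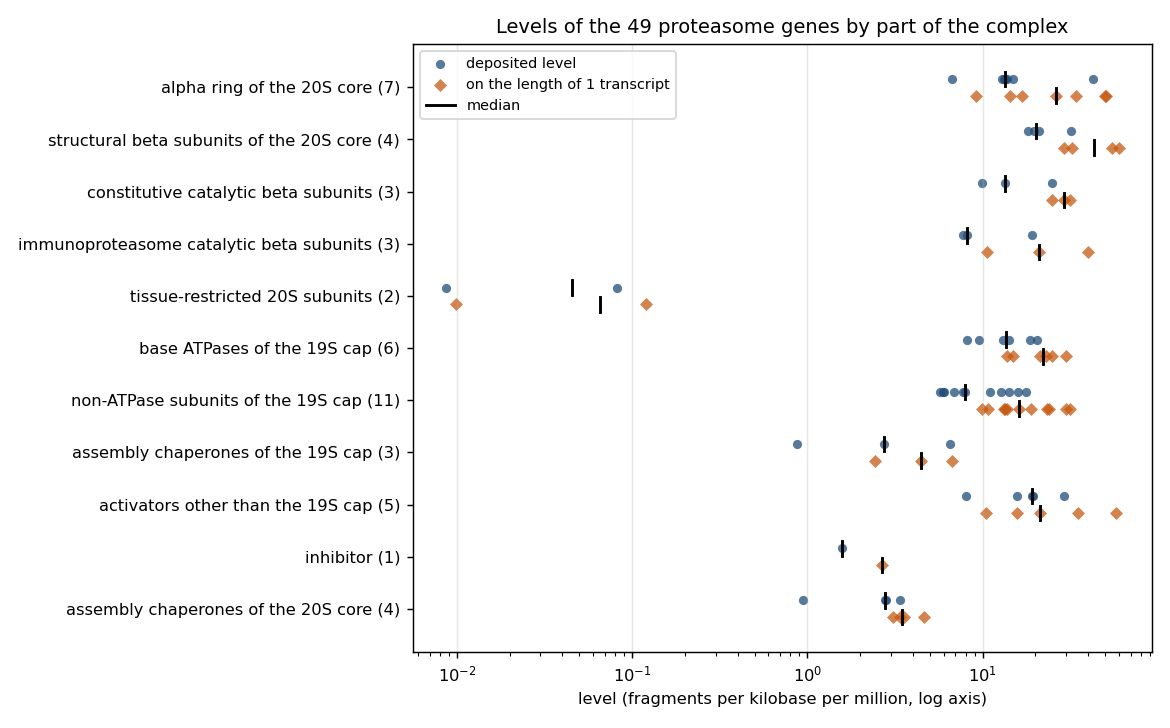
Levels of the 49 proteasome genes by part of the complex, with the number of genes in brackets; circles are deposited levels, diamonds the same levels on the length of 1 transcript, and black bars medians, on a log axis in RPKM. Core, cap and activator genes lie between 5.74 and 42.8 on the deposited scale, the assembly chaperones and the inhibitor Psmf1 between 0.871 and 6.51, and Psma8 and Psmb11 below 0.1.

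Among the catalytic subunits, each immunoproteasome gene had a lower deposited level than the gene it replaces. Psmb8 (chromosome 17, 34197721 to 34201454) had 19.2 and its counterpart Psmb5 (chromosome 14, 54614119 to 54618022) 24.8, a ratio of 0.775 with a 95% counting interval of 0.747 to 0.804. Psmb9 (chromosome 17, 34181988 to 34187764) had 7.75 and Psmb6 (chromosome 11, 70525367 to 70527858) 13.4, a ratio of 0.578 (0.555 to 0.603). Psmb10 (chromosome 8, 105935735 to 105938444) had 8.16 and Psmb7 (chromosome 2, 38588036 to 38644087) 9.92, a ratio of 0.823 (0.784 to 0.863). Summed, the immunoproteasome genes made up 42.2% of the level of all 6 catalytic genes. Psmb8 and Psmb5 may have their larger mean in different groups, because Psmb8 could not be resolved into single libraries. Psmb9 and Psmb6 were resolved in the same set, as were Psmb10 and Psmb7. The intervals hold no spread between samples. Near copies were found for Psmb5, Psmb6 and Psmb7, at 90% to 98.9% identity, and none for Psmb8, Psmb9 and Psmb10. Uncertainty from reads shared with near copies therefore falls on the denominator of each pair. Exons that overlap those of another gene are a separate source of shared reads. Such overlaps were found on both sides, for Psmb8 and Psmb9 and for Psmb5 and Psmb7.

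These ratios turned on the length by which a level is divided. Psmb5 has 899 bases of exons and Psmb8 3381, so Psmb8 had 2.92 times the fragments of Psmb5, and on the length of 1 transcript (1628 bases for Psmb8) it stood at 1.61 times Psmb5. Psmb10 went the other way, from 0.823 to 0.363, because only 1160 of the 3421 exon bases of Psmb7 are in its transcript. Psmb9 to Psmb6 was 0.667 on this scale. The order of Psmb8 and Psmb5 therefore cannot be settled from these levels, whereas Psmb9 and Psmb10 lay below their counterparts on both scales that divide by length. The exon length of Psmb8 could not be checked either. With the annotated length, no whole numbers of fragments from 0.5 to 1.6 times the mean gave its deposited level. A wider range was not searched for this gene.

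**Figure D2:**
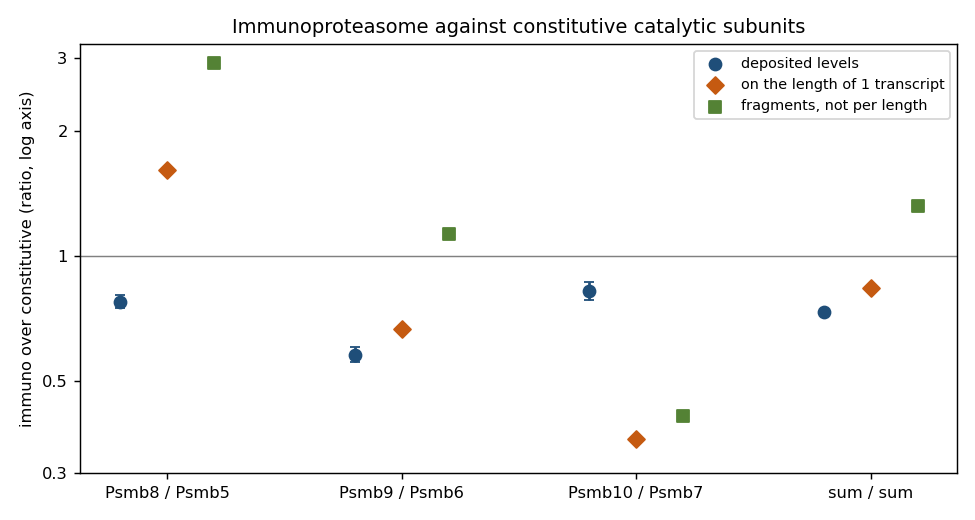
Ratio of each immunoproteasome gene to the constitutive gene it replaces, and of their sums, on a log axis; circles are deposited levels with 95% counting intervals where drawn, diamonds levels on the length of 1 transcript, and squares fragments not divided by length. Psmb8 over Psmb5 moves from 0.775 to 1.61 and 2.92, while Psmb10 over Psmb7 falls from 0.823 to 0.363 and 0.410.

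The coding sequences show how these pairs are related. In global alignments of the 45 pairs among Psmb1 to Psmb10, identity over all columns had a median of 52.7%, and the most alike were Psmb8 with Psmb5 (66.3%), Psmb10 with Psmb7 (64.1%) and Psmb9 with Psmb6 (62.7%). The 21 pairs of alpha genes lay between 53.5% and 57.9%, and Psma8 matched Psma7 at 74.6%. Psmb8 and Psmb9 lie 9956 bases apart, with Tap1, a subunit of the transporter that carries peptides into the endoplasmic reticulum, between them. Exons of Psmb9 and Tap1 share 212 bases on opposite strands. The library kit keeps the strand, but no source used here says whether the counting did, so the Psmb9 level may hold reads of Tap1, which had a level of 13.3.

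In the 19S cap the ATPases of the base had a median of 13.6 and were within a ratio of 2.53 of each other. On the deposited scale Psmc1 was highest at 20.6, followed by Psmc3 at 18.7, Psmc4 at 14.1, Psmc5 at 13.1, Psmc6 at 9.53 and Psmc2 at 8.14. On the length of 1 transcript the order was another, with Psmc3 highest at 29.8, Psmc2 at 22.9 and Psmc5 lowest at 13.9. The 11 non-ATPase subunits had a lower median of 7.97. Psmd2, a scaffold of the base, led at 17.6 on the deposited scale, followed by Psmd8 (15.97) and the ubiquitin receptor Psmd4 (14.2). On the length of 1 transcript Psmd8 (31.7) and Psmd4 (29.8) lay above Psmd2 (24.02). Psmd14, the deubiquitinase that removes ubiquitin chains before degradation, had 12.8. The lowest were Psmd3 at 5.74, Psmd1 at 5.92 and Psmd11 at 6.01. These 3 genes have 4967, 7265 and 6383 bases of exons, and on the length of 1 transcript they had 13.3, 13.8 and 13.5. The median of the 11 genes was then 16.1, and Psmd7 was lowest at 9.88. Across the 49 genes the deposited level had a Spearman correlation of -0.38 with exon length, a description across genes that share libraries.

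Factors that assist assembly lay at the low end of the family. The 19S chaperones Psmd10, Psmd5 and Psmd9 had levels of 6.51, 2.73 and 0.871. The 20S chaperones Psmg4, Psmg2, Psmg1 and Psmg3 had 3.36, 2.81, 2.77 and 0.947. Psmf1, which encodes the inhibitor PI31, had 1.58. On the length of 1 transcript all 8 genes remained at or below 6.69, while the core, cap and activator genes other than Psma8 and Psmb11 started at 9.21.

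The activators had a median of 19.2 on the deposited scale. On the length of 1 transcript it was 21.4, against 43.5 for the structural beta subunits. Psme1 (PA28 alpha) was highest at 29.0, and Psme2 (PA28 beta), its partner in the same ring, had 19.2. Both lie on chromosome 14, 5911 bases apart. Psme3, whose PA28 gamma is found in the nucleus, had 19.3, and Psme4 had 8.08. Psme2b had 15.7, but its reads cannot be separated cleanly from those of Psme2 because their coding sequences are so alike. It also shares 41 exon bases on the same strand with 9930111J21Rik1. Without the members of this group that have a near copy, Psme3 and Psme4 remained, with a median of 13.7. Of all 49 genes, 17 had at least 1 other annotated gene that matched their coding sequence at 90% identity or more over at least 50% of its length, mostly processed pseudogenes. These included 7 matches for Psmb3 and a match at 100% over 665 bases between Psma3 and Gm13835. Of the 33 matching genes only 6 had a row in the table, and besides Psme2 and Psme2b none reached a level of 1. The levels of these 17 members are uncertain to the extent that the counting shared reads between copies.

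For 35 of the 49 genes the deposited mean could be taken apart into the whole numbers of fragments of its 4 libraries, 25 in set 2 and 10 in set 1. A gene can be resolved only in the set with the larger mean, so of the other set it is known only that its mean was no higher than the deposited level. The shares were close to those of 6035 other protein-coding genes resolved in the same way, of which 70.0% fell in set 2. Psmb8 and Psme1 were among the 14 genes not resolved.

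Psmb9 was the least even of the resolved genes apart from Psme2b. It had 8.50, 5.97, 11.6 and 4.87 in libraries 1 to 4 of set 2, from 753 to 1819 fragments each. These values exist only with its exon length cut from 3660 to 3659 bases at the edge of the deposited region, a choice made after the full length gave none. Its highest library stood at 2.39 times its lowest, a spread that 95.01% of the 4227 other genes resolved in set 2 did not exceed. Psmb10 had 10.6, 6.40, 9.71 and 5.99 in the same libraries, a spread of 1.76. Libraries 1 and 3 were thus high and libraries 2 and 4 low for both immunoproteasome genes that could be resolved.

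The constitutive counterparts were more even. Psmb6 had 15.6, 12.2, 15.5 and 10.3, with the same libraries high and low and a spread of 1.52. Psmb7 had 10.2, 10.2, 10.1 and 9.17, a spread of 1.11 that only 3.86% of the other genes in set 2 did not exceed. Psmb5 was resolved in set 1, with 23.7, 25.4, 22.6 and 27.5. Within libraries the ratio of Psmb9 to Psmb6 was 0.545, 0.488, 0.751 and 0.474, and that of Psmb10 to Psmb7 was 1.04, 0.626, 0.960 and 0.653. Psmb9 was below Psmb6 in all 4 libraries, and Psmb10 was below Psmb7 in 3 of them. On the length of 1 transcript both ratios were below 1 in every library, at 0.547 to 0.866 and 0.276 to 0.458.

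The PA28 genes that could be resolved had the same order of libraries as Psmb9 and Psmb10, an order not particular to these genes. Psme2 had 22.2, 16.03, 24.4 and 14.2 in libraries 1 to 4 of set 2, and Psme2b had 16.4, 10.2, 25.2 and 11.1, a spread of 2.47. In both, libraries 1 and 3 were above libraries 2 and 4. Psme2 and Psme2b may share reads, so their values are not independent of each other. The same order was seen in Psma5, Psmb3, Psmb6, Psmc5, Psmd3, Psmd4, Psmg1 and Psmg4.

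**Figure D3:**
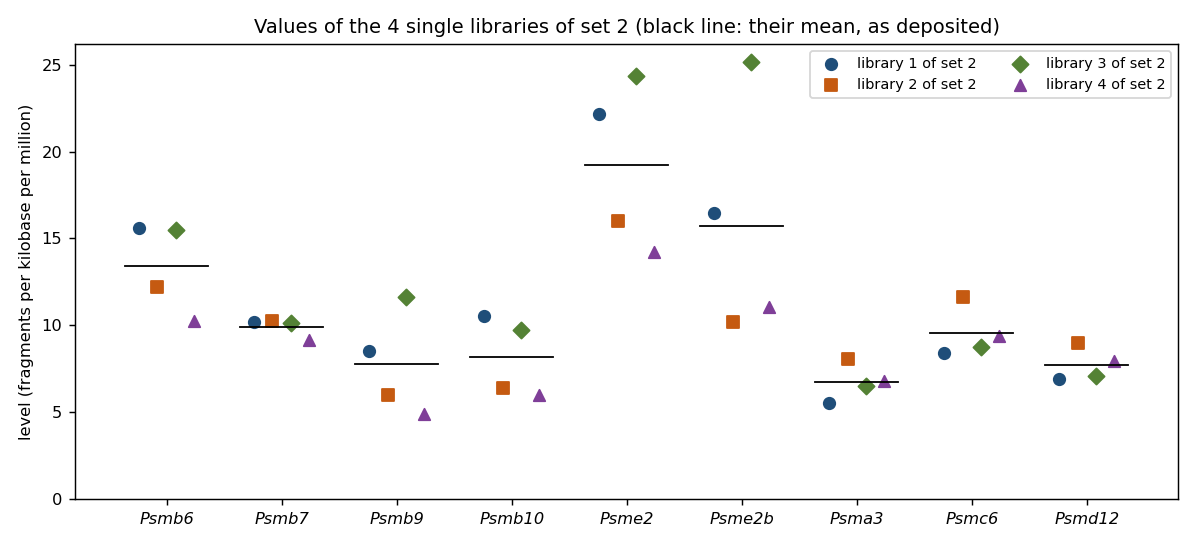
Levels in RPKM of 9 proteasome genes in each of the 4 libraries of set 2; black lines are the deposited means, and Psma3, Psmc6 and Psmd12 were added after their values were seen because they run the other way. For Psmb9, Psmb10, Psmb6, Psme2 and Psme2b libraries 1 and 3 lie above libraries 2 and 4, while Psmb7 stays between 9.17 and 10.2.

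This order of the libraries was not shared by all proteasome genes. It held for 12 of the 25 genes resolved in set 2, and for 36.3% of the other genes resolved there. Psma3 had its highest value, 8.08, in library 2 and its lowest, 5.55, in library 1. Psmc6 (11.6 and 8.39) and Psmd12 (8.97 and 6.90) had theirs in the same libraries. Exon length moved with the order: it held for 8 of the 9 genes of up to 2000 bases (Psmd10 was the exception) and for 4 of the 16 longer genes, Psmb9, Psmb3, Psmd3 and Psmd4. Among other genes it held for 54.8% and 33.6% of the shorter and longer ones. The Spearman correlation of exon length with the value of a library over the mean was -0.37, 0.56, -0.50 and 0.40 for libraries 1 to 4 over the 25 genes, and -0.22, 0.12, -0.19 and 0.34 over the others. The part of length in the order of single genes was not tested. Markers of other cells also differed between these libraries. Among the erythroid genes Hbb-bs had 41.5, 66.7, 82.6 and 39.5 in libraries 1 to 4, Hba-a1 21.02, 30.4, 32.8 and 22.5, and Klf1 0.252, 0.232, 0.398 and 0.0619. Among the genes of eosinophils, basophils and mast cells, Mcpt8 had 4.42, 2.09, 1.9 and 2.71 and Cpa3 0.938, 1.05, 0.401 and 0.890. The dendritic cell gene Itgax had 2.89, 3.34, 4.13 and 3.02. The B cell gene Ebf1 lay between 0.0916 and 0.139, and the NK cell genes Ncr1 and Klrb1c between 0.507 and 0.623 and between 0.176 and 0.352. These markers did not share 1 order. Library 3 was the highest for 7 of the 10 markers resolved in set 2, among them Hbb-bs, Hba-a1, Klf1, Itgax, Ebf1 and Ncr1. It was also the highest for Psmb9, Psme2 and Psme2b. Of the 25 proteasome genes it was the highest for 6, against 36.4% of the other genes resolved there. The part of these markers was not tested, and the neutrophil genes could not be resolved.

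**Figure D4:**
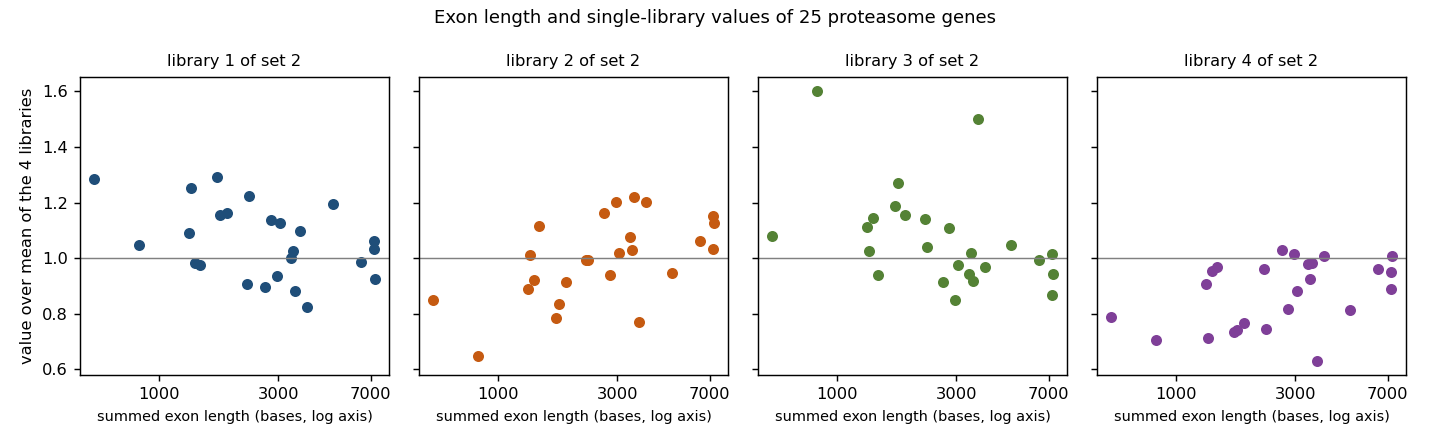
Value of a single library over the mean of the 4 libraries, against summed exon length in bases on a log axis, for the 25 proteasome genes resolved in set 2, 1 panel a library. Shorter genes tend to lie higher in libraries 1 and 3 and longer genes in libraries 2 and 4; the 2 points at or above 1.5 in library 3 are Psme2b and Psmb9.

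Among the 19S genes resolved in set 2, Psmd11 had 5.92, 6.37, 5.98 and 5.77 in libraries 1 to 4, a spread of 1.10 that 2.98% of the other genes did not exceed. Psmd13 had 11.1, 11.9, 10.4 and 10.8, and Psmd1, a scaffold of the base, had 5.49, 6.67, 5.58 and 5.97. In these 3 genes library 2 was highest. Psmd4 had 16.1, 13.3, 15.7 and 11.5 and Psmd3, a lid subunit, had 6.87, 5.43, 6.01 and 4.67, with library 4 lowest in both. The 20S chaperones Psmg1 and Psmg4 rested on few fragments, 62 to 229 a library. Psmg1 had 3.46, 2.80, 2.84 and 1.97, and Psmg4 had 4.32, 2.86, 3.63 and 2.65. Both were lowest in library 4 and highest in library 1. Over the 25 proteasome genes library 4 was lowest for 13, against 40.7% of the other genes resolved in set 2. Library 1 was highest for 9 and library 2 for 10, against 22.2% and 27.3% of the other genes.

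In set 1 the spread was smaller. Its 10 genes had a median ratio of highest to lowest library of 1.24, equal to that of 1808 other genes to the same digits, while the 25 genes of set 2 had 1.39 against 1.43. The base ATPases gave 4 of these genes. Psmc1 had 17.9, 23.1, 19.04 and 22.2 in libraries 1 to 4 of set 1, Psmc2 had 7.5, 9.18, 7.47 and 8.42, and Psmc3 had 17.9, 19.9, 17.3 and 19.8. Psmc4 had 14.1, 15.4, 12.3 and 14.5, and library 2 was the highest for all 4 genes. Psmb2 had 18.6, 24.3, 18.9 and 21.7, also with library 2 highest. Over the 10 genes library 2 was highest for 7 and library 4 for 3, against 36.7% and 28.4% of the other genes.

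A list of 31 other genes, most of which work beside the proteasome, lay between 1.27 for Tbp and 4444 for Actb, both reference genes. Pomp, the chaperone needed for core assembly and for the immunoproteasome above all, had 6.05, above each Psmg gene and below each of Psma1 to Psma7. It was resolved in set 2 with 6.44, 6.27, 6.49 and 4.99 in libraries 1 to 4. Among the genes for ubiquitin itself Ubb had 480.1 and Rps27a 103, and the activating enzyme Uba1 had 46.4. The 19S partners Adrm1, Uchl5 and Usp14 had 6.50, 7.91 and 2.22, and Sem1, a small lid subunit, had 26.8. The factors that drive proteasome transcription, Nfe2l1 and Nfe2l2, had 10.9 and 34.9. Genes that use the peptides were higher than the immunoproteasome genes in part: B2m, the light chain of MHC class I, had 643, the class I loading factor Tapbp 53.0, Tap2, the partner of Tap1, 16.9 and Tap1 13.3. The interferon pathway gene Irf1, which controls immunoproteasome genes, had 19.4.

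Promoter sequences from RefSeq (GRCm38.p6, 300 bases around the start) were at hand for 41 of the 49 genes. Letters were searched on both strands, and no motif searched contains another. The core of an interferon-stimulated response element, TTTC followed after any 2 bases by TTTC, was found in 5 promoters (12.2%), against 3.99% of 27025 genes. They are shown because an interferon-type sequence bears on the immunoproteasome and PA28 genes, with the motif in capitals and as read on the strand of the gene. Of those genes with a promoter at hand only Psme1 held it, and Psmb9, Psme2 and Psme3 were searched without a match. Psmb8, Psmb10 and Psme2b held none of the motifs searched. Whether they are among the 41 genes with a promoter is not given here.
Psme1: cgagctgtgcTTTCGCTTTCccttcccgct
Psmb3: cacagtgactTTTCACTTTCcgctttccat
Psmd4: ataaccaaccTTTCCATTTCtgtggcgcct
Psmd9: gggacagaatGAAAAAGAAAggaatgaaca
Psmg4: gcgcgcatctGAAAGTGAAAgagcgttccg

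The promoters searched were chr14:55578244-55578543 (plus strand) for Psme1, chr11:97703184-97703483 (plus) for Psmb3, chr3:95042565-95042864 (minus) for Psmd4, chr5:123227940-123228239 (plus) for Psmd9 and chr13:34162714-34163013 (plus) for Psmg4. The motif began 9 bases after the start in Psme1, 15 after it in Psmg4 and before it in the others. The GC box GGGCGG was in 56.1% of the 41 promoters and 38.2% of all genes, and CCAAT in 34.1% and 41.1%. The antioxidant-type element TGACTCAGC was in 0 of 41 and in 0.503% of all genes. These are matches of letters in a window of fixed length and do not show that a factor binds there.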

How the data were processed

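The 8 samples (4 PC-EV-educated, 4 PBS) were read by the authors as paired ends of stranded libraries from total RNA depleted of ribosomal RNA. The submitters' processing notes name GRCm38 and edgeR. No source used here names the aligner, the annotation or the counting settings. As deposited by the authors, the table holds 1 pooled level per gene, the larger of the group means, in a unit the header does not name but whose steps are those of RPKM (per length of exons and per depth of library). The deposited tables also hold the authors' own comparison of the groups (log2 fold change, fold change, p-value, FDR and Bonferroni value), and a file of the genes they selected by it. None of these was used, so nothing is said here of a difference between PC-EV-educated and PBS samples.

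Exon lengths, coding sequences and overlaps came from GENCODE vM21, with exons cut to the deposited region of a gene (45 of 49 genes had the same region in both). The transcript scale uses the principal coding transcript. Depths were read from the steps of the lowest genes. Each gene's level times length was then solved for whole fragments in 4 libraries (lattice reduction, relative tolerance 3e-16), in ranges of 0 to 4, 0.3 to 2.5 or 0.5 to 1.6 times the mean that narrow with the number of fragments, so a wider spread in a deeply covered gene could not be found. A gene counted as resolved with 1 solution and at most 0.1 solutions per wrong length over the lengths up to 20 bases off. These rates sum to 1.23 over the 35 genes, which is about the number of false solutions to reckon with. Of 202 other genes given a length wrong by 7 bases, 0 gave a single solution. The solver was tested on simulated data. The tolerance (5 values looked at), the limit (3 looked at), the ranges and the cutting of exons were all chosen after seeing the data. The cutting was chosen after Psmb9, Psma7 and Psma8 had no solution without it, and Psma7 and Psma8 had none with it either. Other candidate lengths tried for some unresolved genes were not used.

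Counting intervals are 95% Poisson intervals on the smallest number of fragments the depths allow, and the interval of a ratio is taken on the log scale. Near copies were found with blastn 2.17.0. Python 3.11.15, pandas 2.3.3, numpy 2.4.6, scipy 1.17.1 and Biopython 1.88 were used. No protein table was at hand, so coding sequences were aligned instead of proteins. All genes that match the symbol rule could be named, and other genes came from lists of pathway genes and cell type markers. Some genes of these lists and some sequences are not reported here. The members and lists were chosen with earlier results of these data known. Alternatives tried were the scale, the summary by median, the denominator of the catalytic ratios, near copies, single libraries left out and the settings of the solver.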

Additional observations from a re-analysis of the deposited data

Results flagged for a closer look

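Of the 35 genes resolved into single libraries, only Psmb7 had a library set apart by Dixon's rule. This rule weighs a gap against the range of the gene itself. For Psmb7 library 4 of set 2 had 9.17, while the others lay between 10.1 and 10.2. The gap was 0.905 of the whole range for this gene, past Dixon's 95% limit for 4 samples. Chance alone passes this limit for about 1 gene in 20, and Psmb7 was also among the most even genes of the set. Psme2b, with 25.2 in library 3 and 10.2 to 16.4 in the others, was further apart in level but did not pass.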

How the results depend on the processing

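The catalytic ratios depended on the scale and on the denominator. Psmb8 over Psmb5 was 0.775 as deposited, 2.92 when multiplied by exon length, 1.4 by transcript length, 0.948 against the median of Psmb1 to Psmb4 and 1.61 on 1 transcript. For Psmb9 over Psmb6 these values were 0.578, 1.13, 0.980, 0.382 and 0.667, for Psmb10 over Psmb7 0.823, 0.410, 0.930, 0.403 and 0.363, and for the median of the pairs 0.775, 1.13, 0.980, 0.403 and 0.667. The ratio of the sums was 0.730. On 1 transcript the medians were 26.3 for the alpha ring, 43.5 and 29.3 for structural and constitutive catalytic beta subunits, 21.0 for the immunoproteasome, 0.0654 for Psma8 and Psmb11, 22.1 and 16.1 for ATPases and other cap subunits, 4.48 and 3.46 for 19S and 20S chaperones, 21.4 for activators, 2.67 for Psmf1 and 18.8 for all genes. Geometric means in the same order were 14.5, 22.1, 14.9, 10.7, 0.0268, 13.3, 9.37, 2.49, 2.23 and 16.9, and 7.66 for all genes. Without genes that have near copies the median was 14.9 for the alpha ring, 13.1 for ATPases, 13.7 for activators and 8.11 for all genes. With levels of at least 1 it was 4.62 for the 19S chaperones. The median percentile was 83.2 among genes of at least 0.1 and 74.5 among genes of at least 1. Of 76 alternative values, 23 stayed within counting error or, for counts, within 1.5 times; the shifts with scale and summary follow from those choices themselves. The number of genes resolved was 34 without cutting exons and 42 at any decoy rate. It was 42 with a second, narrower search chosen with candidate solutions known, and 27 at a wider tolerance. A gene that keeps 1 solution at the wider tolerance must keep the same one, so this setting does not check the solutions. No paired analysis was possible because the deposited level is pooled and carries no replicate numbers. Leaving out each library of set 2 in turn, chosen after seeing the data, gave 0.508 to 0.605 for Psmb9 over Psmb6 and 0.749 to 0.891 for Psmb10 over Psmb7. Over the 35 resolved genes it moved a mean by at most 1.25 times, for Psme2b, which had 12.6 without library 3. For the other 14 genes no library could be left out. Identity of mature protein chains was not run.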
